A study of Mus musculus with 35 samples.

Results

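The proneural basic helix-loop-helix (bHLH) factors examined here are 8 genes chosen by symbol: Neurog1, Neurog2, Neurog3, Neurod1, Neurod4, Olig2, Nhlh1 and Nhlh2. All 8 were listed in 2 of the 3 expression tables, which hold 18091 and 17705 genes, and 7 of them in the day 3 table of 17948 genes, so that Neurog3 was not analysed on day 3. The cells were v6.5 mouse embryonic stem cells, a male line of mixed 129 and C57BL/6 origin, differentiated towards neuroectoderm (NE) by withdrawal of LIF and addition of 1 µM retinoic acid (RA) for 72 h according to the labels. The study asked what Tet3, an enzyme that oxidizes methylated cytosine, contributes to this fate with and without its catalytic activity. Tet3+/+ cells carry the normal gene, Tet3m/m cells carry point mutations in the iron-binding site of the catalytic domain, and Tet3-/- cells lack exon 4.

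The day 3 experiment compared 3 Tet3+/+, 3 Tet3m/m and 2 Tet3-/- samples, which the study describes as independent clones. In the Dnmt1 experiment, cells of each genotype carried either an empty vector or a vector for Myc-tagged Dnmt1, the maintenance DNA methyltransferase, with blasticidin selection and 2 samples per genotype and vector. The sources do not state that these pairs came from separate clones, so their p-values measure the spread between those samples, which may be technical. The Tet3-CD experiment introduced either an HA-tagged construct of the Tet3 catalytic domain, called Tet3-CD, or an empty vector while the cells differentiated, and it has 1 sample per genotype and vector and therefore no replicate check. The methods put the collection of these samples later than the 72 h of the labels, so their time in RA is uncertain. Recovered reads per sample ran from 36594650 to 47710548 on day 3, from 31155842 to 50845950 in the Dnmt1 experiment and from 33475041 to 37707719 in the Tet3-CD experiment.

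Proneural bHLH factors start neuronal differentiation in dividing neural progenitors. They bind DNA at E-box sequences as dimers with broadly expressed E-proteins, raise Notch ligands such as Dll1 that hold neighbouring cells in the progenitor state, and are opposed by Hes and Id proteins. Neurog1 and Neurog2 act first, in progenitors of sensory ganglia and the neural tube, and Neurog3 has the same part in the endocrine pancreas and gut. Neurod1, Neurod4, Nhlh1 and Nhlh2 act later, as cells leave the cycle and become neurons. Olig2 belongs to the same superfamily but mostly represses its targets and marks motor neuron and oligodendrocyte progenitors of the ventral neural tube.

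In the mouse annotation (GENCODE vM21, GRCm38) the coding sequence of each of the 8 genes lies in 1 exon. Neurog1 is a gene of 1 exon at chr13:56250478-56252163 on the minus strand, and Neurog2 lies at chr3:127633135-127635631 on the plus strand. Nhlh1 is at chr1:172052292-172057573 on the minus strand, Nhlh2 at chr3:102010076-102015492 on the plus strand, Neurod4 at chr10:130268152-130280240 on the minus strand and Olig2 at chr16:91225457-91228677 on the plus strand. Neurod1, at chr2:79452521-79456751 on the minus strand, shares 201 exonic bases with Cerkl on the same strand and 154 with the non-coding Gm26755 on the other. Neurog3, at chr10:62133090-62134763 on the plus strand, shares 273 exonic bases with Fam241b on the opposite strand. The strand setting of the read counting is not given in the sources used here, so the values of Neurod1 and Neurog3 are uncertain to that extent.

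The sequence before the start of the 3 genes with the largest fold differences between Tet3m/m and Tet3+/+ on day 3 is shown because the study concerns a methylcytosine oxidase and these promoters differ in how many CG dinucleotides they offer. Each is the 250 bases upstream of the RefSeq start on GRCm38.p6, written 5′ to 3′ along the gene. Capitals mark matches on either strand to CANNTG (the general E-box), to CACNAG (the N-box bound by Hes proteins) or to AGGTCA (a retinoic acid receptor half-site).
Neurog1 (chr13:56252181-56252430, minus strand): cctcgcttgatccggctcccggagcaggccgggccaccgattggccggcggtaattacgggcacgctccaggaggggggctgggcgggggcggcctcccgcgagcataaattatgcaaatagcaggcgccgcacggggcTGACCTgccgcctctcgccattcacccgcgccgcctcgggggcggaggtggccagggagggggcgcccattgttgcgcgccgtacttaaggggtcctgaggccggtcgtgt
Neurod4 (chr10:130280255-130280504, minus strand): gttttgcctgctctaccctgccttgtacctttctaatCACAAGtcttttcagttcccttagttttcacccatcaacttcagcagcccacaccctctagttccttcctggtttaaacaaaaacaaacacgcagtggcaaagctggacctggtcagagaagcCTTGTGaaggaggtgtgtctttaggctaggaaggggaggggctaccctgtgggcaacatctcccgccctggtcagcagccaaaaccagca
Nhlh1 (chr1:172057597-172057846, minus strand): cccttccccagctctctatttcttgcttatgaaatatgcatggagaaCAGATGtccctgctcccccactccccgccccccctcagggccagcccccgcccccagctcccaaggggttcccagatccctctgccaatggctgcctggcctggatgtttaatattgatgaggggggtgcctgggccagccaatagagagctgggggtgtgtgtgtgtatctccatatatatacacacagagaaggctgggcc

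The Neurog1 window held 29 CG dinucleotides, more than 93.2% of the 32851 mouse promoter windows of the same length, whereas those of Neurod4 and Nhlh1 held 2 each. Neurod4 has a second RefSeq start, at whose window of chr10:130280139-130280388 there were 7 CG dinucleotides, more than in 53.7% of windows, and 1 CACNAG match, against 2 in the window shown. The other members' windows held 8 (Neurog2), 18 (Neurog3), 22 (Neurod1), 22 (Olig2) and 2 (Nhlh2). Of the 8 genes, 4 had a CANNTG match (Neurog3, Neurod1, Nhlh1 and Nhlh2), against 66.2% of all windows. CAGATG, a form of that E-box, was in the windows of Nhlh1 and Nhlh2 and in 14.4% of all windows, and a further form, CAGCTG, was in that of Neurog3 and in 13% of all. Neurod4 and Nhlh2 had a CACNAG match, present in 36.7% of windows, and Neurog1 had the AGGTCA match, present in 14%. A match describes letters only and says nothing about binding.

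On day 3, Neurog1 was by far the most abundant member in Tet3+/+ cells. Per kilobase of exon, its mean normalized count (reads divided by the authors' size factor for the sample) was 533, followed by Nhlh1 at 83.7, Neurod1 at 66.2, Nhlh2 at 60.1, Neurog2 at 43.3, Neurod4 at 28.4 and Olig2 at 16.0. From Nhlh1 down to Neurod4 the ranges of neighbours in this order overlapped, so that only Neurog1 at the top and Olig2 at the bottom were separated from the next gene in all 3 samples.

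In Tet3m/m cells, 6 of the 7 members measured on day 3 were lower than in Tet3+/+ cells, with log2 fold changes of -5.13 to -2.20. The samples of these 6 did not overlap between the genotypes, which held for 36.7% of all genes tested. A gene was called where the adjusted p of limma was under 0.05 and the fold change above 1.5, and 10.2% of the 17915 genes tested met this, in either direction. The median log2 fold change was -3.90 over the members and 0.00 over all genes tested. In bulk RNA, fewer cells that express a gene and less RNA per cell cannot be told apart.

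Neurog1, the factor that commits sensory and neural progenitors, had normalized counts of 837, 712 and 1148 in the Tet3+/+ samples, of 14.3, 54.8 and 63.1 in the Tet3m/m samples and of 238 and 214 in the Tet3-/- samples. All Tet3m/m samples were below both Tet3-/- samples, which in turn were below all Tet3+/+ samples. On day 3, Tet3-/- samples did not overlap Tet3+/+ for 41.2% of all genes and Tet3m/m for 41%, in either direction. Its log2 fold change from Tet3+/+ came to -4.54 ± 0.45 in Tet3m/m (SE, limma adjusted p = 0.000206) and to -1.96 ± 0.51 in Tet3-/- (limma adjusted p = 0.0767), and the direct difference between both mutants was 2.58 ± 0.51 (limma adjusted p = 0.00959). The last of these calls was lost when the first Tet3-/- sample was left out (limma adjusted p = 0.057), and without the first Tet3m/m sample the values for Tet3m/m and for the direct difference were -3.88 and 1.92. The Tet3-/- difference from Tet3+/+ had a 95% interval of -3.08 to -0.84, and it passed the threshold when either the first or the third Tet3m/m sample was left out of the joint fit.

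Neurog2, the related factor of dorsal and motor neuron progenitors, did not follow the order of Neurog1. Its normalized counts were 73.2, 123 and 92.9 in Tet3+/+, 14.3, 18.5 and 28.5 in Tet3m/m and 8.48 and 5.69 in Tet3-/-. The lowest samples were here the Tet3-/- ones, and none of the 3 genotypes overlapped. Neurog2 fell by 2.20 on the log2 scale in Tet3m/m (limma adjusted p = 0.00709) and by 3.58 in Tet3-/- (limma adjusted p = 0.0274), whereas its difference between both mutants was -1.38 with a 95% interval of -2.41 to -0.34 (limma adjusted p = 0.0827). The Tet3-/- call was lost in 6 of the 8 fits that each left out 1 sample, with adjusted p of up to 0.13 and log2 fold changes between -3.83 and -3.33. In those 6 fits at most 2 genes of all those tested were called.

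Neurod1, which drives neuronal differentiation downstream of the neurogenins, read 216, 121 and 205 in Tet3+/+, 45.1, 25.3 and 23.4 in Tet3m/m and 134 and 165 in Tet3-/-. Neurod4, which acts with it in neuronal differentiation, read 70.4, 116 and 98.8, then 6.15, 10.1 and 0, and then 74.2 and 62.6 in the same groups. For both genes every Tet3m/m sample was below all others, while the Tet3-/- samples overlapped the Tet3+/+ range. Neurod1 fell by 2.51 on the log2 scale in Tet3m/m (limma adjusted p = 0.000993) and Neurod4 fell by 4.45 (limma adjusted p = 0.00379). The Neurod4 value depended on single samples, at -3.40 without the third Tet3m/m sample, which held 0 reads, and -5.14 without the second, and stayed called. In Tet3-/- the log2 differences from Tet3+/+ were -0.24 (95% interval -1.06 to 0.59) for Neurod1 and -0.44 (-2.32 to 1.43) for Neurod4. Relative to Tet3m/m, Tet3-/- cells were higher by 2.27 on the log2 scale for Neurod1 and by 4.01 for Neurod4 (limma adjusted p = 0.00412 and 0.0129), and the Neurod4 call was lost without either Tet3-/- sample, with a pseudocount of 0.1 and with only these groups in the fit (limma adjusted p of 0.054 to 0.071). Its value was 2.96 without the third Tet3m/m sample and 4.69 without the second.

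Nhlh1 and Nhlh2, which encode the factors NSCL1 and NSCL2 of newly formed neurons, were also lowest in Tet3m/m. Nhlh1 counts were 179, 198 and 241 in Tet3+/+, 2.05, 3.37 and 14.3 in Tet3m/m and 81.7 and 86.5 in Tet3-/-. Nhlh2 counts were 322, 243 and 411 in Tet3+/+, 22.5, 20.2 and 18.3 in Tet3m/m and 233 and 200 in Tet3-/-. The 3 genotypes did not overlap for either gene, with Tet3m/m lowest and Tet3-/- between. In Tet3m/m, Nhlh1 fell by 5.13 (limma adjusted p = 0.000251) and Nhlh2 fell by 3.90 (limma adjusted p = 5.96e-05) on the log2 scale. The Tet3-/- differences from Tet3+/+ did not pass, at -1.27 (95% interval -2.59 to 0.04) and -0.55 (-1.20 to 0.09). Against Tet3m/m, Tet3-/- cells had 14.5-fold more Nhlh1 and 10.2-fold more Nhlh2 (limma adjusted p = 0.0031 and 0.000306). Without the third Tet3m/m sample the Nhlh1 log2 fold change was -5.82 for Tet3m/m against Tet3+/+ and 4.54 for Tet3-/- against Tet3m/m.

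Olig2 was low and variable on day 3. It read 31.8, 52.3 and 37.6 in Tet3+/+, 12.3, 8.43 and 99.8 in Tet3m/m and 31.8 and 4.55 in Tet3-/-, so that the third Tet3m/m sample was the highest of all 8 and the ranges overlapped. The log2 differences from Tet3+/+ were -0.81 (95% interval -2.76 to 1.15) in Tet3m/m and -1.59 (-3.78 to 0.60) in Tet3-/-.

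**Figure D1:**
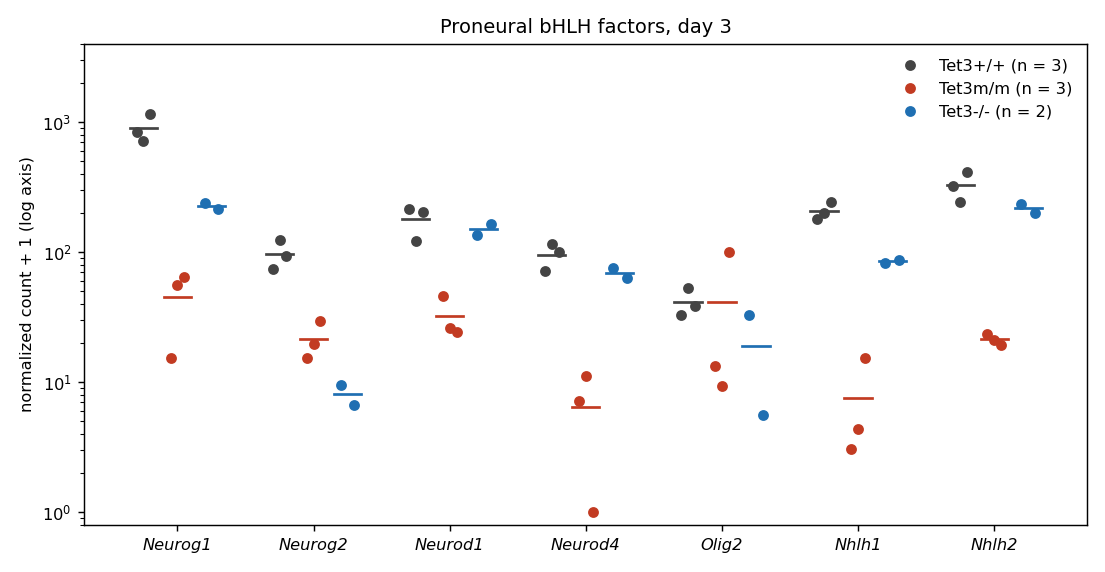
Normalized count + 1 (log axis) of the 7 members measured on day 3, with 1 point per sample and a line at the mean of each genotype. Tet3m/m samples lie below all Tet3+/+ samples for every gene but Olig2, whose Tet3m/m values run from 8.43 to 99.8.

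Between Tet3-/- and Tet3+/+ on day 3, 1 of 7 members was called, where 0.642% of all genes were. All 7 had negative log2 fold changes, with a median of -1.27. With DESeq2 on the recovered reads, or with only these 2 genotypes in the fit, 3 members were called lower in Tet3-/- (Neurog1, Neurog2 and Nhlh1). Of all genes, DESeq2 called 916 and the fit of only these 2 genotypes called 664, rather than 115. Between Tet3-/- and Tet3m/m, 5 of 7 members were called, all higher in Tet3-/-, where 9.73% of all genes were called in either direction, and the median log2 fold change of the 7 was 2.58. The comparisons share samples and are not independent of each other. Tet3 itself read 4612, 4576 and 5020 in Tet3+/+, 2666, 2277 and 1945 in Tet3m/m and 1796 and 2329 in Tet3-/-, with log2 fold changes of -1.05 and -1.21, and since the count covers the exons outside exon 4 it does not check that deletion.

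Some marker genes of other cell types differed between the day 3 groups, and their part in the members' differences was not tested. Of all genes, 5.06% were called higher and 5.19% lower in Tet3m/m, and 0.458% and 0.184% in Tet3-/-. The summed normalized count of 8 pluripotent cell markers was 7310 to 10413 in Tet3+/+, 9717 to 24227 in Tet3m/m and 7839 to 10236 in Tet3-/-, and none of the 8 was called in either mutant. The sum of 10 endoderm markers was 10203 to 10872, 13585 to 18974 and 8453 to 10921 in the same order, with 3 called higher in Tet3m/m. Of 10 neural progenitor markers 6 were lower in Tet3m/m and 1 higher in Tet3-/- (Nes), although the sums overlapped between Tet3+/+ (23224 to 31850) and both Tet3m/m (19702 to 24406) and Tet3-/- (30890 to 35439). Of 10 postmitotic neuron markers 7 were lower in Tet3m/m and 1 higher (Stmn2, a microtubule regulator of growing axons), and in Tet3-/- that gene alone was called, higher. All 10 neural progenitor markers were detected in every genotype, and no marker of these lists was at 0 in every sample of a group.

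In Tet3+/+ cells 6 of the 7 members listed in both tables, all but Olig2, were scarcer with the empty vector of the Dnmt1 experiment than on day 3. Neurog1 averaged 1.94 RPM (reads scaled to the library's total) there, against 22 on day 3 and 3.70 in the empty vector sample of the Tet3-CD experiment. RPM does not rest on the normalization of the tables. The experiments differ in vector and blasticidin selection, and the time in RA of the Tet3-CD samples is uncertain. The difference in level between experiments was not tested. In this experiment Tet3m/m cells had less Neurog1 but more Olig2 and Neurog3 than Tet3+/+ cells, and Tet3-/- cells had more Neurog1, Neurod1, Neurod4, Nhlh1 and Nhlh2 and less Olig2.

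Neurog1 read 60.3 and 97.4 in Tet3+/+, 31.1 and 36.5 in Tet3m/m and 281 and 264 in Tet3-/-. The groups did not overlap, and the Tet3-/- samples were now the highest, unlike on day 3. With 2 samples per group, 72.3% of all genes did not overlap between Tet3m/m and Tet3+/+. The share was 77.1% between Tet3-/- and Tet3+/+ and 82.1% between Tet3-/- and Tet3m/m. These shares are the background of all separations given below for the empty vector samples. This gave a log2 fold change of -1.16 ± 0.29 for Tet3m/m (limma adjusted p = 0.00231) and of 1.82 ± 0.29 for Tet3-/- (limma adjusted p = 2.04e-05). The Tet3m/m call was lost without the second of the 2 Tet3+/+ samples (log2 fold change -0.82, limma adjusted p = 0.067).

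Neurog2 counts, at 33.6 and 23.2 in Tet3+/+, 11.0 and 15.6 in Tet3m/m and 35.7 and 27.5 in Tet3-/-, gave a log2 difference of -1.04 (95% interval -1.99 to -0.09) in Tet3m/m and of 0.16 (-0.79 to 1.11) in Tet3-/-. Neurod1 read 9.88 and 18.6, 9.14 and 2.61, and 54.4 and 86.8 in the same order, and Neurod4 read 3.95 and 6.96, 5.48 and 0, and 53.6 and 44.4. Both Tet3-/- samples were above all others for Neurod1 and Neurod4. Neurod4 means with the empty vector and with Dnmt1 were 49.0 and 21.3 in Tet3-/-. They were 5.45 and 13.6 in Tet3+/+ and 2.74 and 7.53 in Tet3m/m. Neurod4 thus passed the minimum mean of 10 mainly through Tet3-/-, the group where it was high. In Tet3-/- Neurod1 rose by 2.26 on the log2 scale (limma adjusted p = 0.00118) and Neurod4 by 2.99 (limma adjusted p = 0.00733). The Neurod4 call was lost without the first Tet3+/+ sample (limma adjusted p = 0.057) and with a pseudocount of 0.1 (0.067). In Tet3m/m the differences were -1.27 (95% interval -2.38 to -0.16) and -1.30 (-3.15 to 0.55).

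Nhlh1 was at 15.8 and 0 in Tet3+/+, 0 and 13.0 in Tet3m/m and 94.2 and 76.2 in Tet3-/-, and Nhlh2 was at 9.88 and 25.5, 16.4 and 7.81, and 117 and 76.2. The Tet3-/- samples were the highest for both genes, and those of Tet3+/+ and Tet3m/m overlapped. In Tet3-/- the log2 fold change was 4.39 for Nhlh1 (limma adjusted p = 0.00192), ranging from 2.35 to 6.42 as single samples were left out and not called without the second Tet3+/+ sample, and 2.49 for Nhlh2 (limma adjusted p = 0.000142), which was 1.85 without the first Tet3+/+ sample and 3.13 without the second. In Tet3m/m it was -0.13 (95% interval -2.41 to 2.15) and -0.45 (-1.44 to 0.53), where the day 3 values were -5.13 and -3.90. The Tet3+/+ values rest here on few reads, 16 and 0 for Nhlh1 and 10 and 22 for Nhlh2, 1 read being worth 0.804 to 1.3 normalized counts.

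Olig2 showed the reverse arrangement. It read 47.4 and 40.6 in Tet3+/+, 313 and 337 in Tet3m/m and 6.50 and 27.5 in Tet3-/-. The Tet3m/m samples were the highest and the Tet3-/- samples the lowest, with no overlap. Olig2 thus rose by 2.86 ± 0.53 on the log2 scale in Tet3m/m (limma adjusted p = 0.000133) and fell by 1.62 ± 0.53 in Tet3-/- (limma adjusted p = 0.0143), of which the latter was lost without the first Tet3+/+ sample or the first Tet3-/- sample, with adjusted p of up to 0.35. The Tet3-/- log2 fold change was -0.65 without the first Tet3-/- sample and -2.58 without the second. Per kilobase Olig2 was the most abundant member in Tet3m/m cells of this experiment, at 128 with the empty vector, where Neurog1 was at 20.0.

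Neurog3, the endocrine factor, read 18.8 and 0 in Tet3+/+, 38.4 and 50.8 in Tet3m/m and 1.62 and 6.35 in Tet3-/-. Tet3m/m was the highest group and the Tet3+/+ samples differed widely. For Tet3m/m the log2 fold change was 3.34 ± 1.03 (limma adjusted p = 0.0112), but 1.19 without the second Tet3+/+ sample, where it was no longer called (limma adjusted p = 0.35), nor was it without the second Tet3m/m sample. The overlapping gene Fam241b had 370 to 376 in Tet3+/+ and 388 to 409 in Tet3m/m, and was not called.

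Of the 8 members, 3 were called between Tet3m/m and Tet3+/+ with the empty vector, where 21.2% of 18055 genes were, 6 between Tet3-/- and Tet3+/+, where 24.9% were, and 8 between Tet3-/- and Tet3m/m, where 39.6% were. The last 8 comprised 6 higher in Tet3-/- and 2 lower, Olig2 (log2 fold change -4.48) and Neurog3 (-3.36). Without the first Tet3-/- sample these 2 were at -3.51 and -2.62, and without the second at -5.44 and -4.11. Of the last 8 calls, those of Neurog2, Neurog3 and Nhlh1 were lost when single samples were left out (limma adjusted p of up to 0.14), that of Neurog3 also with a pseudocount of 0.1 (0.073), and DESeq2 did not call Nhlh1 or Neurog3, nor Nhlh1 and Olig2 between Tet3-/- and Tet3+/+ or Neurog3 between Tet3m/m and Tet3+/+. The median log2 fold change of the members was -0.74, 2.04 and 2.96 in these comparisons, and that of all genes between -0.01 and 0.01. These counts and medians include Neurog3 and Neurod4, which were tested mainly through the group where each was high. In Tet3-/- cells 3 of the 7 members in both tables (Neurog1, Nhlh1 and Nhlh2) lay below Tet3+/+ on day 3 and above it with the empty vector, without overlap in either. Of 17244 genes 4.8% did so, and 7.88% had opposite directions in either order.

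**Figure D2:**
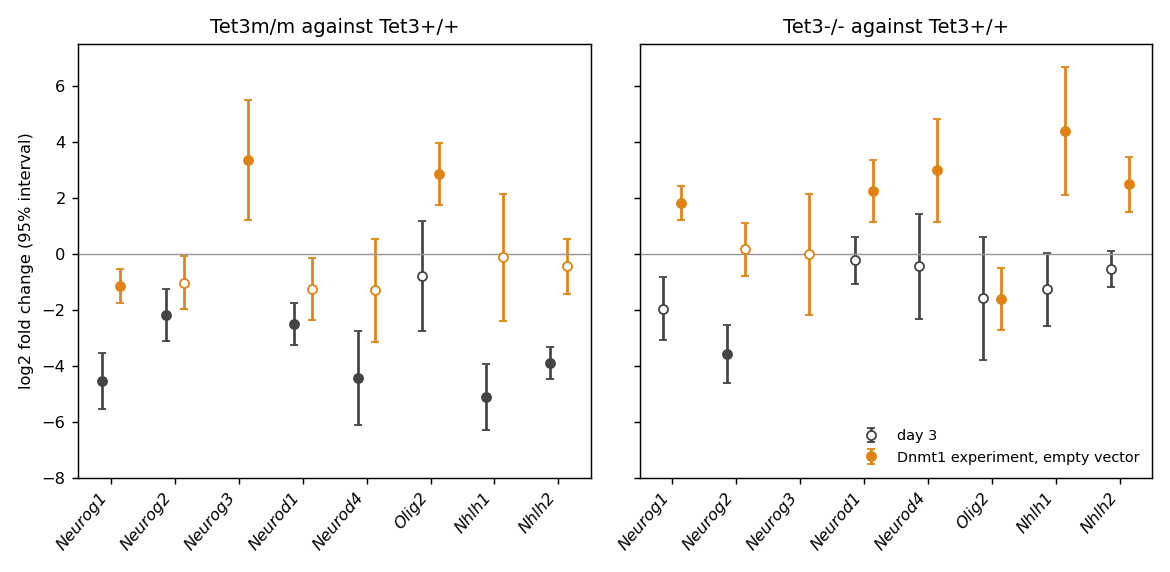
Log2 fold changes of the members against Tet3+/+, for both mutants, on day 3 and in the empty vector samples of the Dnmt1 experiment, with 95% intervals as bars. Filled points passed the call and open points did not. In Tet3-/- cells Neurog1 lies at -1.96 on day 3 and at 1.82 with the empty vector.

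Cell type markers also differed between genotypes here, and their part in the members' differences was not tested. Of all genes, 10.3% were called higher and 10.9% lower in Tet3m/m, and 11% and 13.9% in Tet3-/-. The pluripotent marker sum was 25795 to 26300 in Tet3+/+, 74837 to 77028 in Tet3m/m and 7476 to 7849 in Tet3-/-. Of those 8 markers 7 were higher and 1 lower in Tet3m/m, and 7 were lower in Tet3-/-. The endoderm sum was 28729 to 30730, 101110 to 112020 and 11058 to 11639, with 8 of 10 markers higher in Tet3m/m and 7 lower and 2 higher in Tet3-/-. Neural progenitor sums were 18673 to 19103, 18445 to 18864 and 22159 to 22526, with 6 of 10 markers lower and 2 higher in Tet3m/m, and 4 higher and 3 lower in Tet3-/-. Of 9 postmitotic neuron markers 6 were higher and 1 lower in Tet3m/m and 7 higher in Tet3-/-. Tet3 counts with the empty vector were 2957 and 3075 in Tet3+/+, 1125 and 964 in Tet3m/m and 2520 and 2571 in Tet3-/-.

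The Dnmt1 vector raised Dnmt1 counts from 14679 and 15225 to 22799 and 23768 in Tet3+/+, from 11934 and 11285 to 20245 and 23211 in Tet3m/m, and from 17356 and 17554 to 33380 and 39854 in Tet3-/-. In Tet3+/+ cells 2 members rose with it, Neurog1 and Nhlh2, where 1.17% of all genes were called. All 8 members had a positive log2 difference in Tet3+/+ cells, with a median of 1.28. The samples of 7 did not overlap between vectors, as was the case for 52.7% of all genes tested in this comparison of 2 against 2 samples.

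Neurog1 was at 60.3 and 97.4 with the empty vector and at 234 and 191 with Dnmt1 in Tet3+/+, a log2 fold change of 1.45 ± 0.29 (limma adjusted p = 0.00456). In Tet3m/m it was at 31.1 and 36.5 and then at 19.7 and 19.1, and in Tet3-/- at 281 and 264 and then at 238 and 124. Both Dnmt1 samples were thus above the empty vector samples in Tet3+/+ and below them in the mutants. Vectors did not overlap for 53.5% of all genes in Tet3m/m and for 52% in Tet3-/-, in either direction. Neither mutant difference was called, at -0.77 in Tet3m/m and -0.66 in Tet3-/- on the log2 scale (limma adjusted p = 0.104 and 0.146). The Tet3+/+ call was lost without the first empty vector sample or the first Dnmt1 sample (limma adjusted p of up to 0.10).

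Nhlh2 was at 9.88 and 25.5 with the empty vector and at 76.7 and 50.4 with Dnmt1 in Tet3+/+, where it rose by 1.89 on the log2 scale (limma adjusted p = 0.0208). In Tet3m/m it read 16.4 and 7.81 and then 12.5 and 8.66, and in Tet3-/- 117 and 76.2 and then 75.6 and 52.4. The vectors did not overlap in Tet3+/+ or Tet3-/- and overlapped in Tet3m/m. The Tet3+/+ call was lost without the first empty vector sample (log2 fold change 1.25) or either Dnmt1 sample (limma adjusted p of up to 0.26), and the value was 2.54 without the second empty vector sample.

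Nhlh1 went from 15.8 and 0 to 57.5 and 36.3 in Tet3+/+, a log2 difference of 3.51 (95% interval 1.23 to 5.79) that did not pass (limma adjusted p = 0.0657). In Tet3m/m it read 0 and 13.0 and then 0 and 1.73, and in Tet3-/- 94.2 and 76.2 and then 64.3 and 19.0. Olig2 read 47.4 and 40.6 and then 92.6 and 77.6 in Tet3+/+, 313 and 337 and then 552 and 431 in Tet3m/m, and 6.50 and 27.5 and then 14.5 and 2.38 in Tet3-/-. Its Dnmt1 samples were above the empty vector samples in Tet3+/+ and Tet3m/m, by 0.93 (95% interval -0.17 to 2.04) and 0.59 (-0.52 to 1.69) on the log2 scale, and neither difference passed.

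The remaining members were not called in Tet3+/+. With Dnmt1, Neurog2 stood at 57.5 and 40.3, Neurod1 at 19.2 and 20.2, Neurod4 at 19.2 and 8.06 and Neurog3 at 4.26 and 31.2, with log2 differences from the empty vector of 0.50 to 1.55. In Tet3-/- with Dnmt1 no read of Neurog3 was counted in either sample, and its empty vector samples held 2 and 6 reads, so that no fold is given. Neurod4 was at 37.8 and 4.76 with Dnmt1 in Tet3-/-, so that the second sample lay far below the first and below the empty vector values of 53.6 and 44.4.

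None of the 8 members was called with Dnmt1 in Tet3m/m, where 2.46% of all genes were called, or in Tet3-/-, where 3.53% of all genes were called. With edgeR and with DESeq2 on the recovered reads the count was likewise 0 in both genotypes. Some values in Tet3-/- depended on single Dnmt1 samples. Without the first, the log2 differences of Neurog1, Neurod4 and Olig2 were -1.13, -3.11 and -2.11. Without the second they were -0.20, -0.36 and 0.08.

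The test of the difference itself asks whether the Dnmt1 vector acted differently by genotype. Relative to Tet3+/+, its log2 effect on Neurog1 differed by -2.22 ± 0.41 in Tet3m/m (limma adjusted p = 0.00548) and by -2.12 ± 0.41 in Tet3-/- (limma adjusted p = 0.00213). For Nhlh2 the difference was -2.47 ± 0.67 in Tet3-/- (limma adjusted p = 0.0215). No other member passed in either test, so that 1 was called for Tet3m/m, where 0.604% of genes were, and 2 for Tet3-/-, where 3.99% were. The median difference of the members was -2.30 in Tet3-/- and -1.60 in Tet3m/m, against 0.01 over all genes in both. The same Tet3+/+ effect, positive for all 8 members, was subtracted in both tests, so these values are not independent of each other or of that effect. The Neurog1 call in Tet3m/m was lost without the first Dnmt1 sample of Tet3+/+. The Nhlh2 call was lost in 4 of the fits without 1 sample. Its value was -1.83 without the first empty vector sample of Tet3+/+ and -3.12 without the second.

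**Figure D3:**
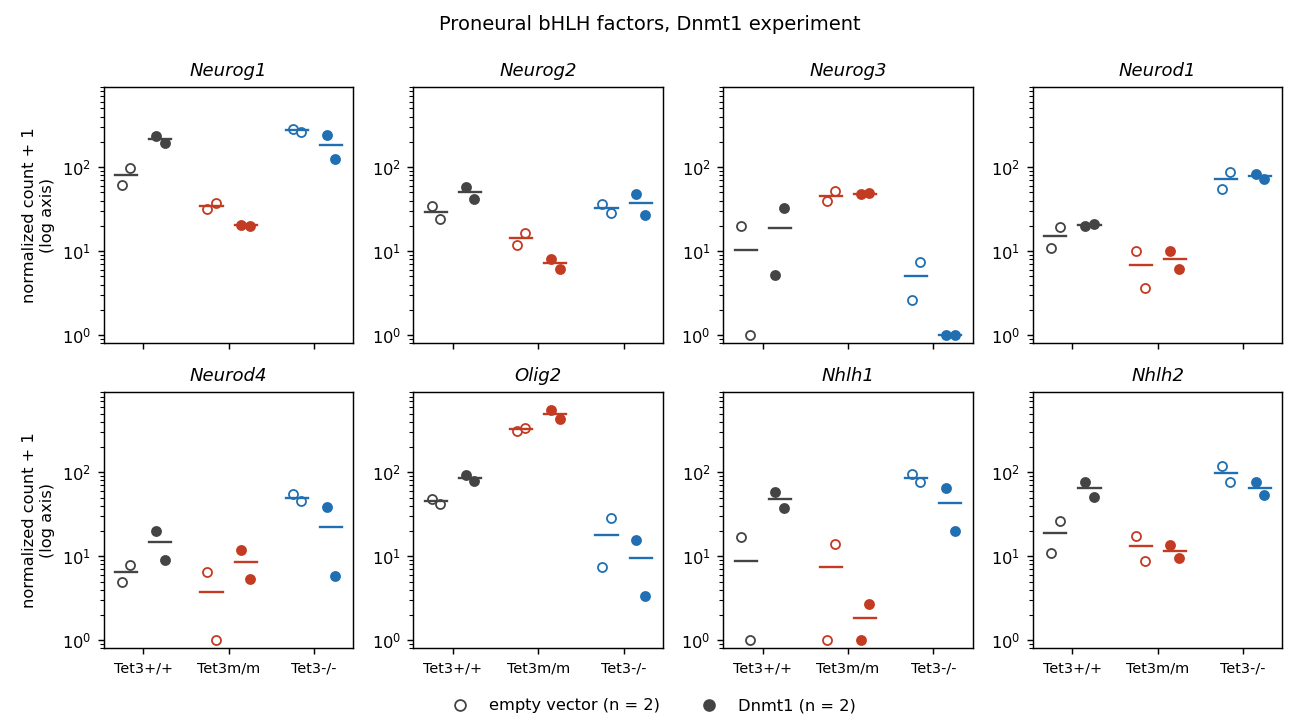
Normalized count + 1 (log axis) of the 8 members in the Dnmt1 experiment by genotype and vector, with 1 point per sample and a line at the mean of 2 samples. Neurog1 with Dnmt1 lies above the empty vector in Tet3+/+ (234 and 191 against 60.3 and 97.4). It lies below it in both mutants, where neither difference was called. Olig2 is highest in Tet3m/m.

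The Tet3-CD experiment gives 1 value per genotype and vector, so its differences compare libraries, and the intervals below cover counting error only. Because 67.3% to 75.0% of values of 1 to 20 reads were even, both mates of a pair were taken to have been counted, and the 95% intervals of ratios were computed on read pairs. With the empty vector, the values in Tet3+/+, Tet3m/m and Tet3-/- were 132, 16.8 and 279 for Neurog1, 66.2, 5.59 and 59.1 for Neurog2, 85.5, 1.86 and 154 for Nhlh1, and 162, 7.45 and 279 for Nhlh2. Tet3m/m was the lowest of the 3 in each, and Tet3-/- the highest in all but Neurog2. Neurod4 read 82.3, 0 and 72.2, which sets it at least 14.7-fold lower in Tet3m/m than in Tet3+/+ (3 read pairs taken as the limit that a count of 0 allows). Neurod1 read 37.4, 34.4 and 69.2, Olig2 55.6, 33.5 and 58.1, and Neurog3 20.3, 10.2 and 15.0.

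All 8 members were lower in the empty vector sample of Tet3m/m than in that of Tet3+/+, with a median log2 ratio of -3.13, and for 5 of the 8, all those but Neurog3, Neurod1 and Olig2, the difference exceeded counting error, as it did for 58.5% of 17481 genes in either direction. In Tet3-/- 5 were higher and 3 lower, with a median of 0.42, and 4 were higher beyond counting error, which 46.2% of all genes passed in either direction: Neurog1 (2.10 times the Tet3+/+ value), Neurod1 (1.85), Nhlh1 (1.81) and Nhlh2 (1.72). The endoderm marker sum was 82286 in the Tet3+/+ empty vector library, against 19304 in Tet3m/m and 21557 in Tet3-/-, and the pluripotent sum was 11682, 20066 and 13406, and their part in these ratios was not tested.

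The members' response to Tet3-CD was described within each genotype. Total Tet3 counts went from 4755 to 5441 in Tet3+/+, from 1850 to 5232 in Tet3m/m and from 2070 to 2759 in Tet3-/-. In Tet3+/+, leaving out Nhlh1 with equal reads, the other 7 members were lower with Tet3-CD, and the median log2 ratio of all 8 was -0.53. Of these, 3 were lower beyond counting error, where 20.2% of all genes were in either direction: Neurog1 (132 to 53.3, a ratio of 0.403 with an interval of 0.246 to 0.642), Neurod4 (82.3 to 45.4) and Nhlh2 (162 to 94.8). Neurod1 and Nhlh1 had ratios of 0.951 and 0.925 there. Nhlh1 had 80 reads in each library, and Neurod1 had 36 with Tet3-CD and 35 with the empty vector. In Tet3m/m Nhlh1 had 2 reads in each library and Neurod4 had 2 and 0, and of the other 6 members 3 were higher and 3 lower. Only Olig2 moved beyond counting error, where 15.6% of all genes did, from 33.5 to 62.0 (ratio 1.85, interval 1.01 to 3.49). Neurog1, at 16.8 and 13.2, Neurog2, at 5.59 and 7.51, Nhlh1, at 1.86 and 1.88, and Nhlh2, at 7.45 and 1.88, remained below every Tet3+/+ and Tet3-/- value of the same gene in Tet3m/m.

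In Tet3-/- all 8 members were lower with Tet3-CD, with a median log2 ratio of -1.35 against -0.02 over all genes. Neurog1 went from 279 to 90.7 (ratio 0.326, interval 0.229 to 0.455), Nhlh2 from 279 to 108 and Nhlh1 from 154 to 71.8. Neurog2 went from 59.1 to 22.7, Neurod4 from 72.2 to 25.5 and Olig2 from 58.1 to 24.6. These 6 ratios lay between 0.326 and 0.465 with intervals below 1, where 43% of all genes had an interval that left out 1, in either direction, whereas those of Neurod1 (69.2 to 64.3) and Neurog3 (15.0 to 3.78) had intervals that included 1. After Tet3-CD the Tet3-/- library was below the Tet3+/+ empty vector library for every member but Neurod1.

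**Figure D4:**
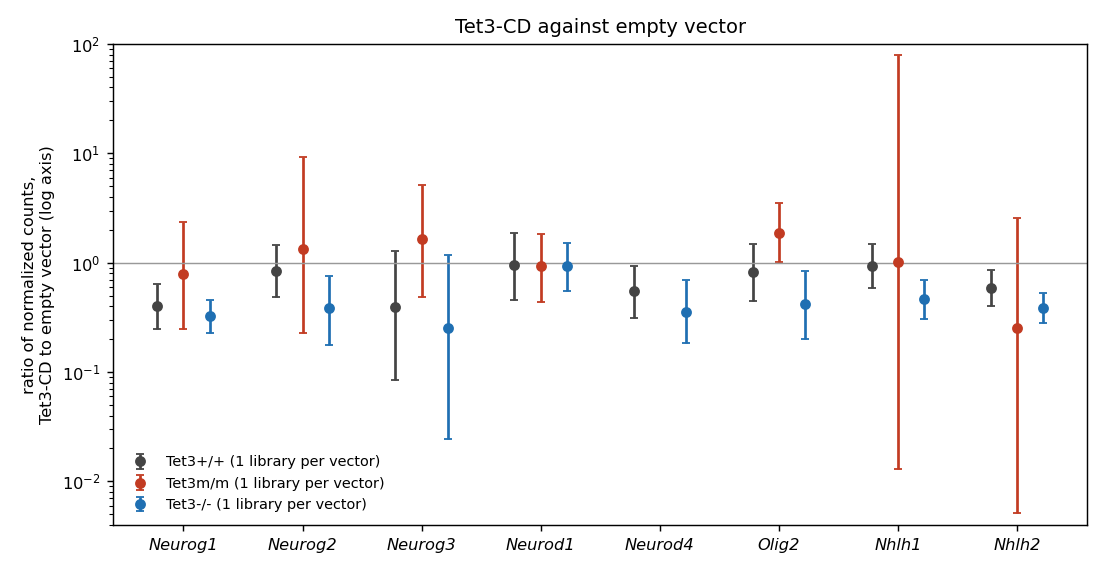
Ratio of each member's normalized count with Tet3-CD to that with the empty vector, by genotype, 1 library each, with 95% intervals that cover counting error only. All ratios in Tet3+/+ and Tet3-/- are below 1, and Neurod4 in Tet3m/m has none because its empty vector library held 0 reads.

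Of 24 genes that the proneural factors are known to activate or that act in neuronal differentiation, 13 were lower and 1 higher in Tet3m/m on day 3 (median log2 fold change -1.15), where 5.19% of all genes were lower and 5.06% higher, and 0 were lower and 1 higher in Tet3-/- (0.07). This list shares Tubb3, Dcx, Elavl3, Elavl4, Stmn2 and Nefl with the postmitotic neuron markers, so their counts are not independent. Cdkn1c, an inhibitor of the cell cycle, averaged 10647 ± 943 (SD, n = 3) in Tet3+/+, 5627 ± 610 (n = 3) in Tet3m/m and 11082 ± 315 (n = 2) in Tet3-/-. Insm1, a zinc finger factor induced by neurogenins, averaged 529, 82.9 and 302 and fell by 2.73 on the log2 scale in Tet3m/m (limma adjusted p = 0.0005). Stmn2 was the gene of the list called higher in both mutants, at 672 in Tet3+/+, 1192 in Tet3m/m and 1628 in Tet3-/-. In the empty vector samples of the Dnmt1 experiment 23 of these genes were tested, of which 4 were higher and 4 lower in Tet3m/m, and 10 higher and 3 lower in Tet3-/-. Of all genes, 10.3% were higher and 10.9% lower there in Tet3m/m, and 11% and 13.9% in Tet3-/-. For Tet3-/- on day 3 the shares were 0.458% higher and 0.184% lower. The shares in this paragraph are the background of the list counts below.

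Of 13 other bHLH genes 7 were tested on day 3, and 3 were lower in Tet3m/m and 1 in Tet3-/-. Atoh8, a further bHLH factor, fell by 1.22 in Tet3m/m (limma adjusted p = 0.00059). With the empty vector, 2 of 6 were higher and 3 lower in Tet3m/m, where Olig3 rose by 2.22 on the log2 scale, and 1 was higher and 1 lower in Tet3-/-.

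The E-proteins Tcf3, Tcf4 and Tcf12, with which the members form dimers, were not called on day 3 in either mutant. Their log2 differences were between -0.28 and 0.03. With the empty vector only Tcf3 was called, with a log2 fold change of -0.70 in Tet3m/m. Of 11 Id, Hes and Hey repressors, 2 were lower in Tet3m/m and 0 in Tet3-/- on day 3, and with the empty vector 1 was higher and 5 lower in Tet3m/m, among them Id1, Id2 and Id3, and 1 higher and 2 lower in Tet3-/-.

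Of 18 upstream patterning factors of the neural plate, 2 were higher and 5 lower in Tet3m/m on day 3 and 1 was lower in Tet3-/-. This list shares Pax6, Sox1, Sox2, Sox3 and Zic1 with the neural progenitor markers, so their counts are not independent. Sox11, which supports neuronal gene expression, fell by 1.00 on the log2 scale in Tet3m/m, and Ptch1, the receptor and target of Hedgehog signals, rose by 1.16. Of 12 ventral neural tube genes 1 was higher and 1 lower in Tet3m/m on day 3 and none in Tet3-/-, and of 10 tested with the empty vector 4 were higher and 2 lower in each mutant. Of 11 placode and sensory neuron genes 2 were higher and 2 lower in Tet3m/m on day 3 and none in Tet3-/-. Of 9 pancreatic and enteroendocrine genes 2 were higher and 2 lower in Tet3m/m, and 1 was lower in Tet3-/-. With the empty vector the patterning list had 3 higher and 7 lower in Tet3m/m and 5 and 5 in Tet3-/-, the placode list 3 and 3 and then 1 and 2, and the pancreatic list, which includes genes that act with Neurog3, 2 and 1 and then 3 and 3.

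The remaining marker lists, of primitive streak and mesoderm, neural crest, trophoblast and fibroblast genes, had 0 to 3 genes called per direction on day 3 in each mutant. In Tet3m/m with the empty vector, 5 of 7 fibroblast markers were lower and 1 higher, 4 of 7 trophoblast and 4 of 7 neural crest markers were lower and 1 of each higher, and 2 of 9 mesoderm markers were lower and 4 higher. In Tet3-/- the fibroblast list had 1 lower and 3 higher, the trophoblast list 2 lower and 2 higher, the neural crest list 2 lower and 1 higher and the mesoderm list 3 lower and 1 higher.

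The genes whose values followed each member most closely were sought among 13625 genes over the 20 samples of the day 3 and Dnmt1 experiments, by Pearson correlation of log2 values centred within each experiment. These samples share genotype and vector groups, so the coefficients describe these groups as much as the genes. Neurog1 was followed most closely by Hes6, a bHLH gene of the neurogenic cascade (r = 0.955), Dtx4 (0.954) and Pou3f3 (0.952), a neural POU factor. Nhlh1 was followed by Tubgcp6 (0.910), 5730596B20Rik (0.881) and Hes6 (0.875), and Nhlh2 by Pou2f2 (0.970), Smyd2 (0.949) and Dtx4 (0.943). Neurog2 had Cebpg (0.899), Sat2 (0.849) and Msi1 (0.831), an RNA-binding protein of neural progenitors, and Neurod4 had Pou2f2 (0.874), Gm20735 (0.866) and Tfrc (0.864). Neurod1 had Dzip1 (0.953), Tm7sf2 (0.95) and Gng12 (0.949), and Olig2 had Elovl6 (0.959), C2cd5 (0.944) and Btbd11 (0.942). Among the members themselves 19 of 21 pairs were positively correlated over the 8 day 3 samples and 15 of 21 over the 12 samples of the Dnmt1 experiment, where the lowest coefficient was that of Olig2 with Neurod1 (-0.86).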

How the data were processed

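RNA-seq was measured in 26 samples of 3 experiments (8 day 3 samples, 12 with Dnmt1 or its empty vector, and 6 with Tet3-CD or its empty vector). The authors trimmed reads with Trim Galore 0.6.7, aligned them with STAR 2.7.9a, assigned the alignments to genes by featureCounts, and scaled the resulting counts using DESeq2. The methods name genome build mm39 and the labels mm10, and no coordinate here comes from the deposited files. The deposited signal values are normalized counts, that is, reads divided by a DESeq2 size factor for each sample. All values (100.0% in each sample, tolerance 0.01) were whole multiples of 1 read, so the reads were recovered. The alternatives with edgeR and DESeq2 used these reads and not read pairs. The lowest mean value of a gene was 9.46, 9.35 and 3.87 in the 3 tables, so scarcer genes are not listed. Depth is given with the samples, and 1 read was worth 0.804 to 1.3 normalized counts, which limits precision for the scarcest members.

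Groups came from the labels. Of the columns for the Dnmt1 experiment, 2 empty vector Tet3+/+ columns share 1 name and were used as unnumbered replicates of that group, called the first and the second sample by their position. limma 3.58.1 (R 4.3.3, empirical Bayes with trend) was fitted on log2(normalized count + 1) for genes with a mean of at least 10, over all samples of an experiment in 1 fit (17915 and 18055 genes), with Benjamini-Hochberg adjustment over all genes tested. A gene was called at a fold change above 1.5 with an adjusted p under 0.05, the thresholds of the methods. Fold changes on this scale understate the change of low genes. In total 11 comparisons were tested. The tests were first run on simulated counts with the same spread setting for every gene and changes only in the less scarce ones. That run does not cover members that are scarce or vary widely between samples. The Tet3-CD experiment has no test, and its ratios have exact binomial 95% intervals on read pairs, with 3 pairs as the limit for a count of 0. These intervals and limits cover counting error only.

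Alternatives were pseudocounts of 0.1 and 5, a minimum mean of 50 or none, edgeR 4.0.16 and DESeq2 1.42.0 on the recovered reads, a TMM rescaling, no fold change threshold, fits of only the compared groups, a replicate block, and leaving out each sample. The members and the 16 gene lists (8 pathway and 8 marker lists) were chosen with earlier results of these data known. From each list the 4 genes highest on day 3, and any called in both mutants there, could be named (1 such result is not reported here), and for each member the 3 genes most like it among those with a mean of at least 50 in both experiments. Exon lengths and positions are from GENCODE vM21 and promoter windows from RefSeq (9 windows for the 8 genes). Motifs were searched on both strands.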

Additional observations from a re-analysis of the deposited data

Results flagged for a closer look

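The effect of the Dnmt1 vector on Neurog1 differed between genotypes by the test of the difference, which was -2.12 on the log2 scale for Tet3-/- minus Tet3+/+ and -2.22 for Tet3m/m minus Tet3+/+. For Nhlh2 this difference was -2.47 for Tet3-/- minus Tet3+/+.

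Between Tet3-/- and Tet3+/+ cells, 3 of 7 members had opposite directions in separate experiments, with no overlap of samples in either, and 7.88% of the 17244 genes tested in both did so. Neurog1 had a log2 fold change of -1.96 on day 3 and of 1.82 with the empty vector of the Dnmt1 experiment, Nhlh1 had -1.27 and 4.39, and Nhlh2 had -0.55 and 2.49. None of the 3 day 3 differences was called (limma adjusted p = 0.0767, 0.259 and 0.312). In this comparison the samples did not overlap for 41.2% of all genes on day 3 and for 77.1% with the empty vector. Cells of the Dnmt1 experiment also carried a vector and went through blasticidin selection, and each experiment was fitted on its own. This difference between experiments was not tested. No group held 4 or more samples, so single samples far from their group could not be looked for.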

How the results depend on the processing

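Of 1596 member fold changes computed under the alternatives, 1563 kept their direction, and none of the 33 that turned had an adjusted p under 0.05. For Tet3m/m against Tet3+/+ on day 3 the count was 6 under each alternative but the minimum mean of 50, where all 5 members then tested were called. Counts of called members moved as follows. With a minimum mean of 50, which left fewer members to test, the count went from 1 to 0 for Tet3-/- against Tet3+/+ on day 3, from 6 to 2 for Tet3-/- against Tet3+/+ and from 8 to 2 for Tet3-/- against Tet3m/m with the empty vector, and from 2 to 1 both for Dnmt1 in Tet3+/+ and for the Dnmt1 effect in Tet3-/- minus that in Tet3+/+. DESeq2 gave 3 for Tet3-/- against Tet3+/+ on day 3, and fits of only the compared groups gave 3 there, 4 for Dnmt1 in Tet3+/+ and 1 for Dnmt1 in Tet3m/m. With a pseudocount of 0.1, 3 single calls were lost, those of Neurod4 between Tet3-/- and Tet3m/m on day 3 (adjusted p = 0.0566), Neurod4 between Tet3-/- and Tet3+/+ with the empty vector (0.0667) and Neurog3 between Tet3-/- and Tet3m/m with the empty vector (0.0728). The cause was not tested.

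Leaving out 1 sample at a time moved the counts of called members and also the number of all genes called. For Tet3-/- against Tet3+/+ on day 3, 115 genes were called with all samples. This number was 0 without the first Tet3+/+ sample and 706 without the first Tet3m/m sample. Counts of members called in such fits are therefore not compared. Uncalled log2 fold changes crossed 0 over the same fits for Olig2 between Tet3-/- and Tet3m/m on day 3 (-2.07 to 0.49). With the empty vector this held for Nhlh1 (-2.17 to 1.90), Nhlh2 (-1.10 to 0.19) and Neurod4 (-2.65 to 0.047) in Tet3m/m, and for Neurog2 (-0.10 to 0.42) and Neurog3 (-2.17 to 2.13) in Tet3-/-. For Dnmt1 it held for Neurog3 in Tet3+/+ (-0.60 to 3.70), for Neurog3 (-0.10 to 0.30), Neurod1 (-0.37 to 1.12), Nhlh1 (-3.08 to 0.73) and Nhlh2 (-0.61 to 0.37) in Tet3m/m, and for Neurog2 (-0.25 to 0.56), Neurod1 (-0.17 to 0.49) and Olig2 (-2.11 to 0.08) in Tet3-/-. Among differences of Dnmt1 effects it held for Neurog3 (-3.60 to 0.71), Neurod1 (-0.87 to 0.62) and Neurod4 (-0.82 to 1.88) in Tet3m/m and for Neurod1 (-0.76 to 0.081) in Tet3-/-. Neurod4 in the Tet3m/m difference also turned with a pseudocount of 5 (-0.037), edgeR (-0.084) and DESeq2 (-0.015), and Neurog3 in Tet3-/- with the empty vector with a pseudocount of 0.1 (1.28).

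With a replicate block, 6, 1 and 5 members were called on day 3 (Tet3m/m and Tet3-/- against Tet3+/+, and Tet3-/- against Tet3m/m), 8 between Tet3-/- and Tet3m/m with the empty vector and 0 for Dnmt1 in either mutant, as without it. The block was not run for Tet3+/+ of the Dnmt1 experiment, whose empty vector columns carry no number. Same-numbered day 3 samples deviated together with correlations of -0.098 to 0.082, and 3 of 6 samples of Tet3+/+ and Tet3m/m correlated best with their own number, so the number was not taken as pairing them. With 1 read worth about 1 normalized count, members at a few reads per sample were resolved poorly at this depth.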
